A study of Mus musculus with 9 samples.

Results

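The 37 genes described here encode enzymes and carriers of fatty acid oxidation, the regulators that drive them and further targets of the nuclear receptor PPARA. They were taken by gene symbol from the 57010 genes of the deposited table. Each matched 1 row, and all 37 passed the filter on low counts that left 13686 genes for testing. Liver RNA of male BALB/c mice was sequenced in 9 libraries, 3 in each of the groups CON, CPT and AT3. The CON libraries carry the treatment label "none". Both other groups, CPT and AT3, are labelled alike as acute injury of the liver caused with cisplatin. This chemotherapy drug holds platinum and binds DNA, and the design text calls the injected solution DDP. The labels spell out neither CPT nor AT3, but atractylenolide III, a sesquiterpene lactone found in plants, stands in the title of the series. The sources used here give no dose, route, timing or age of the mice. No label says that the libraries of a group come from separate animals, so the p-values below measure only the spread between libraries, which may be technical.

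Fatty acids that enter a hepatocyte are joined to coenzyme A. Long chains are carried into mitochondria as carnitine esters, where repeated cycles of dehydrogenation, hydration, renewed dehydrogenation and thiolysis release acetyl-CoA. The electrons pass through electron transfer flavoprotein to the respiratory chain, and in the liver much of the acetyl-CoA can leave as ketone bodies. Peroxisomes shorten very long and branched chains, and cytochromes P450 of family 4A in the endoplasmic reticulum hydroxylate the far end of the chain. PPARA, bound by fatty acids and paired with a retinoid X receptor, activates genes of all these routes, and is best known for doing so in the fasted liver.

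Total counts were 21485021 to 28480479 a library. By library totals alone, without TMM factors, 3 counts correspond to 0.105 to 0.140 CPM (counts scaled to a fixed library total). The CPM values given below also carry TMM factors. With these, 3 counts correspond to more CPM in CON libraries and to less in CPT and AT3 libraries. Of 8 hepatocyte markers 7 were matched and tested, and their summed level was 69753 to 74205 CPM in CON libraries, 54086 to 72792 in CPT libraries and 84684 to 90976 in AT3 libraries. Single hepatocyte markers went both ways in CPT against CON, with 2 higher (Fga by 3.82 and Cps1 by 2.21 on the log2 scale), 3 lower (Ttr, Apoa1 and Serpina1a) and 2 not called (Alb and Apob), and 3 of the 7 were higher in AT3 than in CPT. Of tissues that also burn or absorb fatty acids, 7 of 8 kidney tubule markers were at 0 in every library (Slc34a1 and Umod among them), and the summed level of the 8 was at most 0.169 CPM. Of 8 intestinal markers 5 were at 0 (Sis among them), and the sum was 3.81 to 4.22 CPM in CON libraries, 0.192 to 1.40 in CPT libraries and 0.752 to 0.972 in AT3 libraries. Most of it was Lgr5, a Wnt target also known from hepatocytes around the central vein, called lower in CPT. Of 8 brown fat and muscle markers Myh6 was at 0, and the sum was 2.42 to 3.61, 1.59 to 2.01 and 1.54 to 1.97 CPM, mostly Cox7a1, called lower in CPT. Over all 13686 genes tested, 30.0% were called higher and 30.8% lower in CPT against CON, and 2.46% higher in AT3 against CPT. Markers of other liver cells moved with the groups. In CPT against CON all 5 tested red blood cell markers were lower (summed level 798 to 908 CPM in CON, 42.7 to 50.9 in CPT, 38.4 to 44.5 in AT3), as were 6 of 8 sinusoidal endothelial markers (111 to 116, 20.8 to 29.3 and 25.5 to 31.0 CPM). Lower too were all 8 stellate cell markers (142 to 166, 42.1 to 48.4 and 27.0 to 39.8 CPM) and 5 of 8 Kupffer cell and macrophage markers (33.2 to 45.1, 15.3 to 18.0 and 16.2 to 19.0 CPM), while 1 of these 8, Marco, was higher by 2.02. Of 4 tested neutrophil markers 3 were higher (3.73 to 4.05, 21.2 to 45.5 and 10.6 to 11.7 CPM). Of all counts, transcripts of the mitochondrial genome took 25.8 to 36.8% in CON libraries, 11.2 to 16.3% in CPT libraries and 9.80 to 11.4% in AT3 libraries. The part of these shifts in the results below was not tested, and in bulk liver fewer cells of a type and less RNA per cell cannot be told apart.

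PPARA with its partner binds a response element made of 2 copies of AGGTCA with 1 base between them. The promoters of the 37 genes were searched for it on both strands, allowing 2 mismatches, in the RefSeq windows (GRCm38.p6) from 250 bases before to 50 bases after each start. Such a match was found in 4 of the 34 windows of the 30 genes that have one, and in 3.86% of all 32851 windows of the same length. The 4 matches are shown because they are the closest to the element among these promoters. They are read 5′ to 3′ on the strand of the motif, with the bases that match it in capitals and the spacer and mismatches in lower case.
Slc25a20: AGGTgAaAGGTCg
Acot4: cGGcCAaAGGTCA
Creb3l3: AGGggAgAGGTCA
Etfa: AGGgCAaAGGTaA
The match of Acot4 ends at the base before the start and that of Etfa lies from base -77 to -65, both on the strand opposite to the gene. Those of Creb3l3 (-209 to -197, in 1 of its 2 windows) and Slc25a20 (7 to 19 after the start) lie on the strand of the gene. A match describes letters only. Of these 4 genes Slc25a20 rose in CPT, Creb3l3 was not called, and the calls for Etfa and Acot4 depend on the scaling, as given below.

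In CPT against CON 22 of the 37 genes were higher, 8 were lower and 7 were not called. A call means an adjusted p below 0.05 in edgeR's quasi-likelihood test with Benjamini-Hochberg adjustment over all 13686 genes. Over all genes 60.8% were called, 30.0% higher and 30.8% lower. The share of called genes among the 37, 81.1%, was thus 59.5% higher and 21.6% lower, and their median log2 fold change was 0.56 beside -0.02 over all genes. The libraries of CPT and CON did not overlap for 28 of the 37 genes (21 higher, 7 lower) and for 64.2% of all genes (31.5% higher, 32.7% lower). Mitochondrial steps moved one way, with 9 of 10 genes higher and none lower. The peroxisomal (2 higher, 2 lower, 1 not called) and microsomal (2 higher, 1 lower) steps divided and the ketone gene Bdh1 was not called. Scaled by library totals alone, without TMM, the median of all genes was 0.36 instead of -0.02, 72.7% rather than 49.3% of all calls were higher, and the 37 genes divided into 28 higher and 4 lower. With limma-trend on log2(TPM + 1) the median was 0.29, 80.5% of calls were higher and the 37 genes again gave 28 and 4. Relative to the median of all genes the median of the 37 was 0.58 higher with TMM, 0.58 with library totals, 0.59 with log2(TPM + 1) and 0.42 with log2(TPM + 0.1). Log2 fold changes below carry their standard error (SE) and use TMM unless another scale is named.

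**Figure D1:**
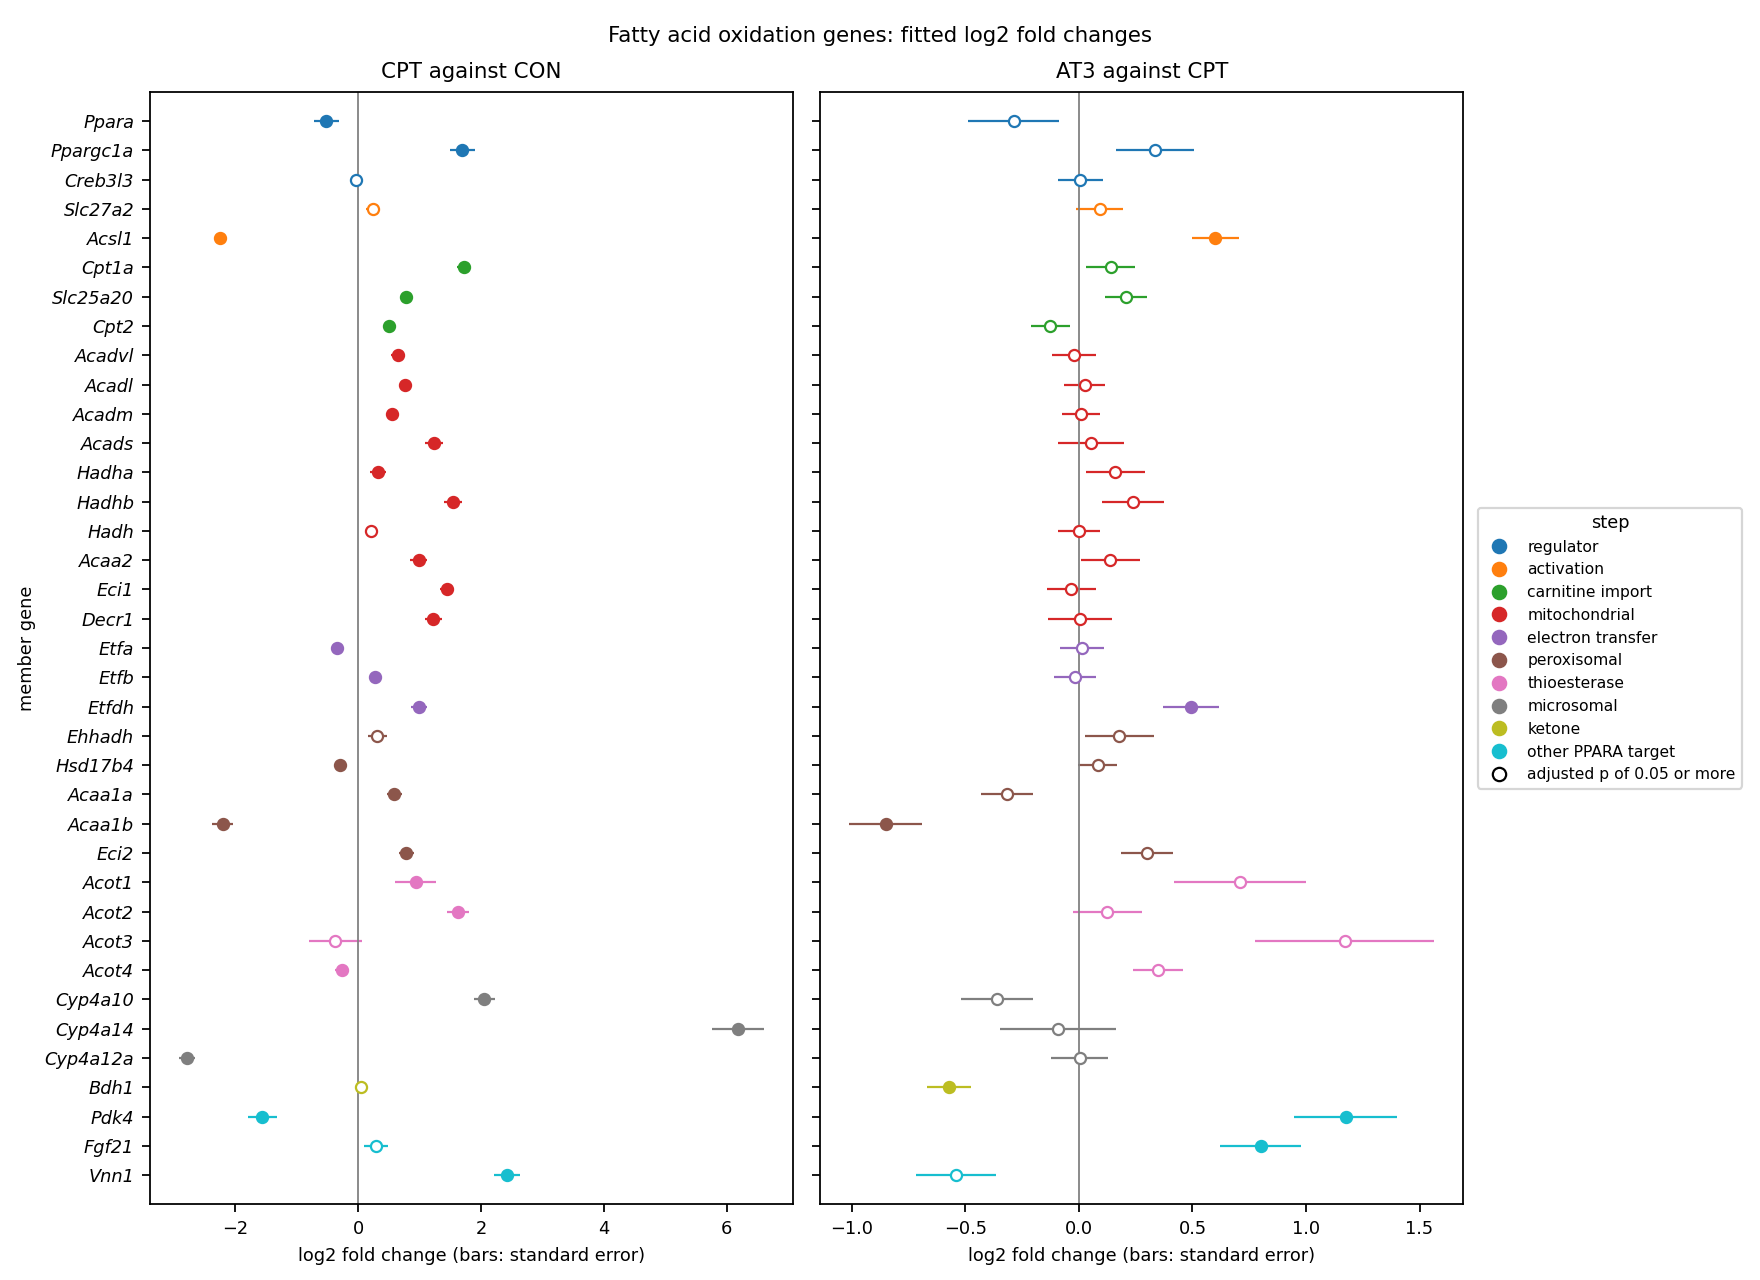
Log2 fold change of each of the 37 genes with its standard error, in CPT against CON (left) and AT3 against CPT (right, with a narrower axis), coloured by step. Filled points had an adjusted p below 0.05 (30 genes on the left, 6 on the right) and open points did not. On the left the 10 mitochondrial genes all lie right of 0, between 0.21 and 1.54, while the microsomal genes span -2.79 to 6.18.

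The regulators moved in different directions. Ppara itself, the receptor, measured 5.96, 6.05 and 3.55 CPM in CON, 3.39, 4.17 and 3.34 in CPT and 2.92, 3.17 and 2.87 in AT3. The third CON library lay within the range of CPT, so the groups overlapped, and the log2 fold change of -0.52 ± 0.20 (adjusted p = 0.0336) turned to 0.04 on the TPM scale and was not called in 11 of 18 alternatives (adjusted p 0.00252 to 0.842). All AT3 libraries were below all CON libraries, with -0.80 ± 0.20 (adjusted p = 0.00243). That call was lost with library totals and with TPM. Ppargc1a encodes PGC-1alpha, a coactivator of PPARA and of mitochondrial biogenesis. It measured 2.08, 2.75 and 2.70 CPM in CON, 9.47, 5.60 and 9.65 in CPT and 10.6, 10.9 and 9.56 in AT3. Every CPT and AT3 library exceeded every CON library, with a log2 fold change of 1.70 ± 0.21 in CPT (adjusted p = 3.7e-06), and CPT and AT3 overlapped. Creb3l3, which encodes a membrane-bound liver transcription factor that acts with PPARA on Fgf21, measured 158, 153 and 159.7 CPM in CON, 142, 149 and 170.3 in CPT and 169.8, 143 and 150.0 in AT3. Its groups overlapped throughout (log2 fold change -0.03 ± 0.10 in CPT against CON, adjusted p = 0.790), although with library totals it was called higher, at 0.36.

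Activation to acyl-CoA is carried by Acsl1, the main long-chain acyl-CoA synthetase of liver, and Slc27a2, a transporter with very long-chain acyl-CoA synthetase activity. Acsl1 measured 332, 316 and 409.6 CPM in CON, 72.9, 73.0 and 77.0 in CPT and 117, 109 and 112 in AT3. The 3 groups were fully separate, with CON highest, CPT lowest and AT3 between them. Its level was 4.74-fold lower in CPT than in CON (log2 fold change -2.25 ± 0.11, adjusted p = 1.3e-10) and 1.52-fold higher in AT3 than in CPT (0.60 ± 0.10, adjusted p = 0.00490), and both calls held in all 18 alternatives. Slc27a2 measured 306, 287 and 279.9 CPM in CON, 294, 356 and 381 in CPT and 361, 361 and 376 in AT3. CPT and CON overlapped in 1 CPT library (adjusted p = 0.0560, called in 8 of 18 alternatives), and AT3 lay above CON in all libraries (0.33 ± 0.10, adjusted p = 0.0108).

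All 3 genes of the carnitine shuttle rose in CPT, and none was called between AT3 and CPT. Cpt1a, the outer membrane carnitine palmitoyltransferase that commits acyl-CoA to mitochondrial oxidation, measured 41.9, 42.2 and 48.5 CPM in CON, 126, 144 and 168 in CPT and 168, 158 and 157 in AT3. The lowest CPT library was well above the highest CON library, and CPT and AT3 overlapped. The rise was 3.30-fold in CPT (log2 fold change 1.72 ± 0.11, adjusted p = 4.2e-09). Slc25a20, the carnitine-acylcarnitine carrier of the inner membrane, went from 46.5 ± 0.461 to 79.7 ± 8.30 CPM (mean ± SD, n = 3; 0.78 ± 0.09, adjusted p = 3.8e-06) and Cpt2, which reforms acyl-CoA inside, from 72.2 ± 2.99 to 103 ± 4.96 CPM (0.51 ± 0.09, adjusted p = 1.1e-04). In AT3 the means were 92.1 ± 2.72 and 94.1 ± 3.08 CPM. All AT3 libraries were above CPT for Slc25a20 and below CPT for Cpt2, differences that were not called (adjusted p = 0.214 and 0.443).

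**Figure D2:**
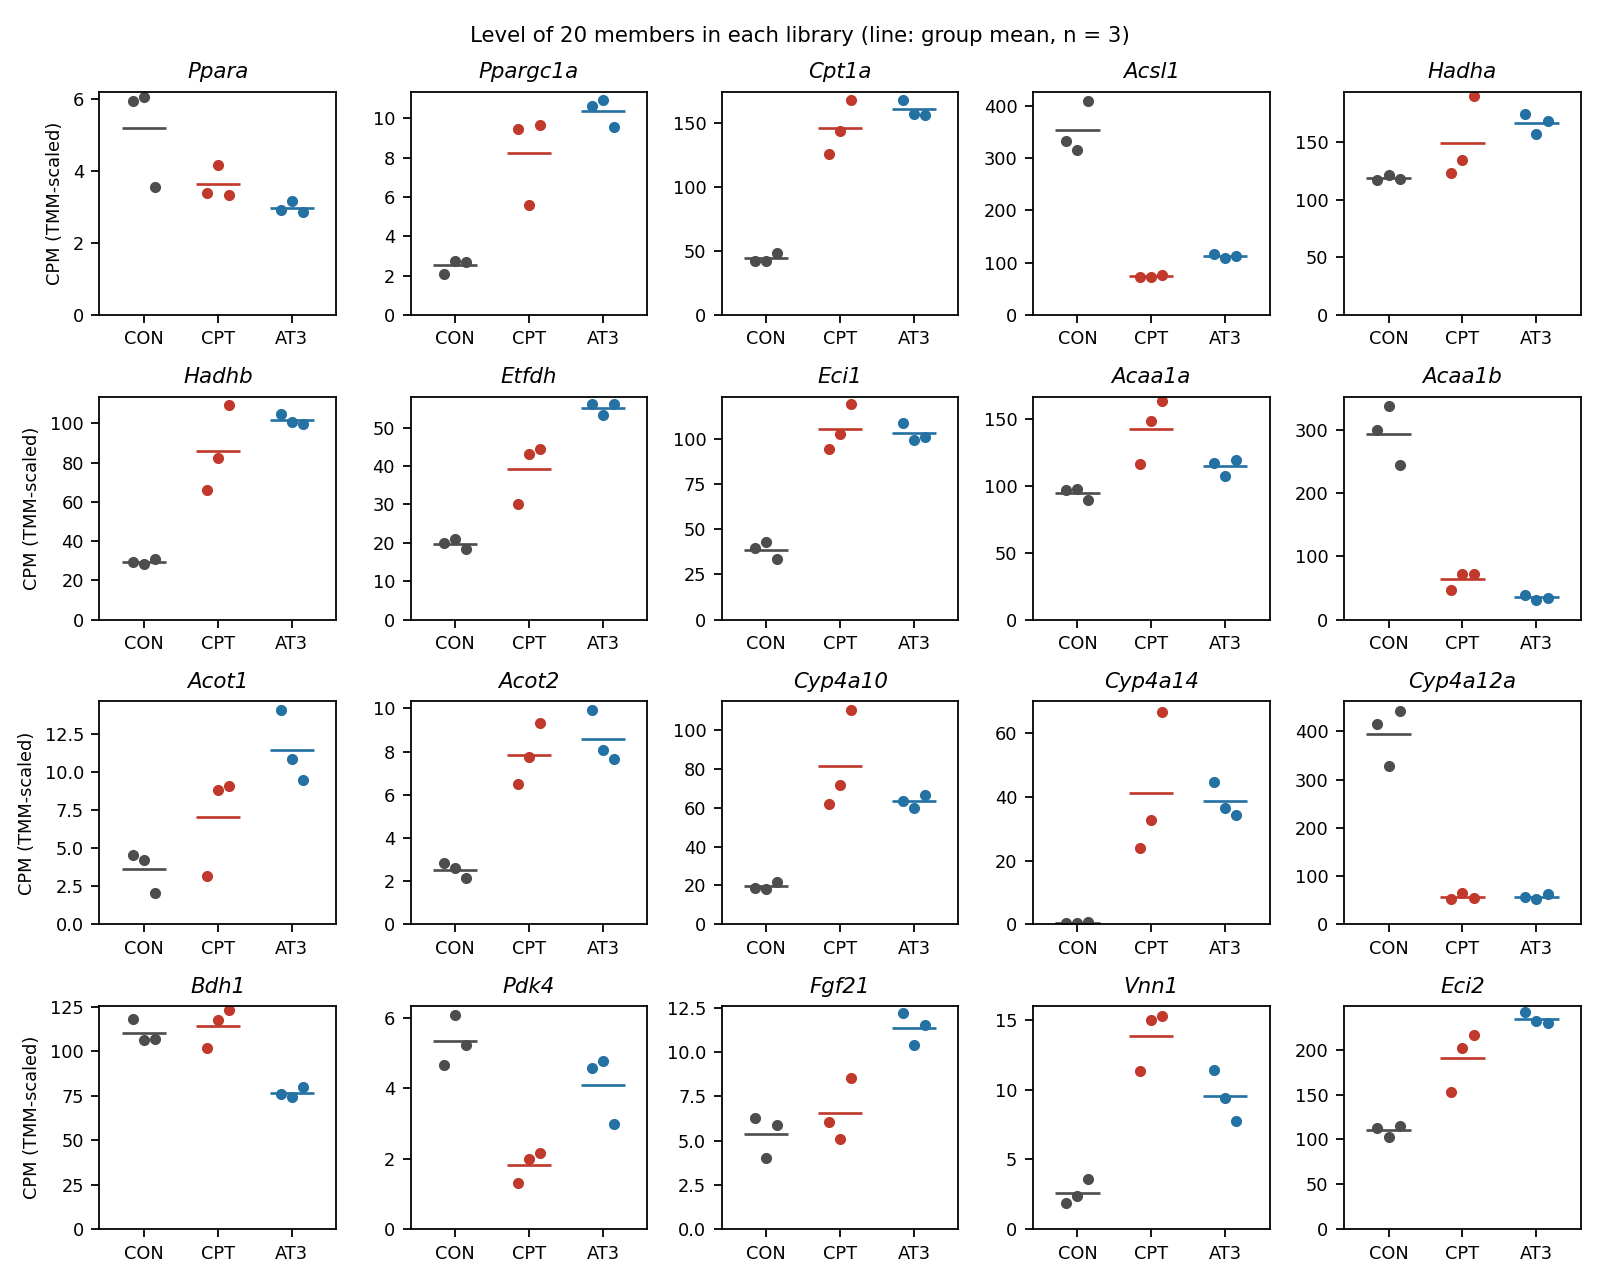
CPM (TMM-scaled, linear axes from 0) of 20 of the 37 genes in each library, with a line at the mean of the 3 libraries of each group. Acsl1 and Pdk4 are lowest in CPT, Cyp4a12a and Acaa1b fall from CON, Cpt1a, Hadhb and Eci1 rise from CON, and Bdh1 is lowest in AT3.

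Within the mitochondrial spiral 9 of 10 genes rose in CPT, with log2 fold changes of 0.33 to 1.54 and a median over the 10 of 0.87. The acyl-CoA dehydrogenases, which take the chain-length classes in turn, all rose: Acadvl (very long) by 0.64, Acadl (long) by 0.76, Acadm (medium) by 0.56 and Acads (short) by 1.24, each with adjusted p at or below 4.4e-05. The size for Acadvl depended on the unit, since in AT3 against CON it was higher by 0.62 in counts but by 0.08, not called, on the log2(TPM + 0.1) scale. The mitochondrial thiolase Acaa2 rose by 0.98 (296 ± 50.2 to 586 ± 89.7 CPM), whereas Hadh, the dehydrogenase of medium and short hydroxyacyl chains, was not called (from 101 ± 4.44 to 117 ± 10.5 CPM, 0.21 ± 0.09, adjusted p = 0.0701), except in 7 of 18 alternatives.

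The auxiliary enzymes for unsaturated chains were among those that rose most. Eci1, an enoyl-CoA isomerase, measured 39.5, 42.7 and 33.6 CPM in CON, 94.5, 103 and 119 in CPT and 108, 99.4 and 101 in AT3 (log2 fold change 1.45 ± 0.11 in CPT against CON, adjusted p = 3.0e-08). Decr1, the dienoyl-CoA reductase, measured 46.5, 45.1 and 45.7 CPM in CON, 76.9, 116 and 129 in CPT and 115, 104 and 103 in AT3 (1.23 ± 0.15, adjusted p = 2.9e-06). For both genes all CPT and AT3 libraries were above all CON libraries and overlapped with each other, and the first CPT library was the lowest of its group.

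Hadha and Hadhb encode the alpha and beta subunits of the mitochondrial trifunctional protein, which carries out the hydration, dehydrogenation and thiolysis of long chains, and the genes start back to back on chromosome 5. The 85 bases between their outermost annotated starts (chr5:30155163-30155247, forward strand, sequence from the RefSeq GRCm38.p6 window, starts from GENCODE M21) are shown because both genes share them.
Hadha-Hadhb: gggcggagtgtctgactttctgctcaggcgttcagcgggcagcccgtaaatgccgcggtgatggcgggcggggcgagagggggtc
Hadha measured 117, 122 and 118 CPM in CON, 123, 135 and 190.3 in CPT and 175, 158 and 169 in AT3. Hadhb measured 29.4, 28.1 and 31.1 CPM in CON, 66.1, 82.6 and 109.6 in CPT and 105, 101 and 99.7 in AT3. Both were above CON in every CPT library, Hadhb by 2.92-fold (1.54 ± 0.14, adjusted p = 2.0e-07) and Hadha by 1.26-fold (0.33 ± 0.13, adjusted p = 0.0391), the latter a call lost in 6 of 18 alternatives (adjusted p 7.9e-04 to 0.235), among them each CON library and the third CPT library left out. Of the 50-base windows of the Hadhb coding sequence 90.4% also occur in transcripts of other annotated genes, most often of Gm13910. How the authors' counting divided reads between these genes is uncertain. No window match to the PPARA element with at most 2 mismatches was found for either gene.

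Electron transfer flavoprotein did not move as a unit. Etfa, its alpha subunit, measured 210.4, 231 and 239.7 CPM in CON, 182, 195 and 158 in CPT and 175, 185 and 179 in AT3. It was lower in every CPT library (-0.35 ± 0.10, adjusted p = 0.00619) but higher by 0.04 with library totals and by 0.25 with TPM, neither of them called. In AT3 against CON it was called lower with TMM (-0.34 ± 0.10, adjusted p = 0.00724) and higher with TPM (0.37, adjusted p = 0.0374). Etfb, the beta subunit and by TPM the most abundant of the 37 in each group (472 TPM in CON, 896 in CPT and 1014 in AT3), measured 507, 504 and 516 CPM in CON, 621, 581 and 644 in CPT and 632, 583 and 609.7 in AT3 (0.27 ± 0.09, adjusted p = 0.0165). Etfdh, the oxidoreductase that hands the electrons to ubiquinone, measured 20.1, 20.9 and 18.5 CPM in CON, 30.1, 43.2 and 44.4 in CPT and 56.2, 53.2 and 56.2 in AT3. Its 3 groups did not overlap and rose in that order, by 0.98 ± 0.13 in CPT against CON (adjusted p = 9.0e-06) and by 0.49 ± 0.12 in AT3 against CPT (adjusted p = 0.0345). The latter call was lost in 10 of 18 alternatives (adjusted p 0.00101 to 0.285), among them each AT3 library left out. Etfb shares 76.2% and Etfa 5.67% of its 50-base coding windows with another annotated gene, so their counts may include reads from it.

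Peroxisomal genes divided, most sharply between both copies of the peroxisomal thiolase, which lie on chromosome 9 (Acaa1a at 119339676 to 119350299, Acaa1b at 119148023 to 119157093, GRCm38). Their coding sequences are 96.6% identical, with 44 of 1275 bases different. Of the 50-base windows of each, 38.1% also occur in another annotated gene, most often the other copy. The 90-base stretch with the most differences (coding bases 460 to 549, GENCODE M21) is shown because reads can be told apart there, with the 13 differing bases in capitals.
Acaa1a: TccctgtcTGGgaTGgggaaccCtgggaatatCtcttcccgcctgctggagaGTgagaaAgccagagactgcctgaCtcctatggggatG
Acaa1b: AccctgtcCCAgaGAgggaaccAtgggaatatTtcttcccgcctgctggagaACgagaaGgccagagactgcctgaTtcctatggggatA
Acaa1a measured 96.9, 97.5 and 89.0 CPM in CON, 116, 148 and 163 in CPT and 117, 107 and 119 in AT3. Acaa1b measured 300.5, 338 and 244 CPM in CON, 46.5, 73.0 and 71.6 in CPT and 39.8, 31.8 and 34.4 in AT3. In CPT against CON Acaa1a was 1.51-fold higher (0.59 ± 0.11, adjusted p = 3.6e-04). Acaa1b was 4.62-fold lower (-2.21 ± 0.16, adjusted p = 1.8e-08), and the libraries overlapped for neither gene. By TPM, which is scaled to length, Acaa1b exceeded Acaa1a in CON (129 against 36.5 TPM) and lay below it in CPT (40.3 against 85.1 TPM) and AT3 (23.7 against 71.9 TPM). AT3 was below CPT in all libraries for Acaa1b (-0.85 ± 0.16, adjusted p = 0.00878; not called with TPM, nor without CPT replicate 2 or AT3 replicate 2, adjusted p 2.5e-11 to 0.277 over the alternatives), while Acaa1a overlapped (-0.32 ± 0.11, adjusted p = 0.128).

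Of the other 3 peroxisomal genes 1 rose in CPT, 1 was lower and 1 was not called. Eci2, a peroxisomal enoyl-CoA isomerase, measured 113, 103 and 115 CPM in CON, 153, 202 and 216 in CPT and 241, 231 and 229 in AT3, with the groups separate and rising in that order. The step from CON to CPT was called (0.79 ± 0.12, adjusted p = 2.8e-05) and that from CPT to AT3 was not (0.30 ± 0.11, adjusted p = 0.149). Ehhadh, the peroxisomal bifunctional enzyme and a well-known PPARA target, was not called (49.3 ± 6.04 CPM in CON, 61.1 ± 15.9 in CPT, 0.31 ± 0.16, adjusted p = 0.0968), except in 5 of 18 alternatives. Hsd17b4, the D-bifunctional protein, was lower by TMM (198 ± 7.63 to 161 ± 10.4 CPM, -0.30 ± 0.09, adjusted p = 0.00838) but higher by 0.09 with library totals and by 0.27 with TPM, neither of them called.

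Acyl-CoA thioesterases release free fatty acid and coenzyme A, and Acot1 to Acot4 lie side by side on chromosome 12 (83987861 to 84060402, GRCm38). Acot2, the mitochondrial member, measured 2.87, 2.59 and 2.14 CPM in CON, 6.50, 7.75 and 9.34 in CPT and 9.94, 8.09 and 7.67 in AT3. It rose by 1.63 ± 0.18 in CPT (adjusted p = 1.3e-06). Acot1, the cytosolic member, measured 4.55, 4.24 and 2.08 CPM in CON, 3.18, 8.81 and 9.11 in CPT and 14.1, 10.9 and 9.53 in AT3. The first CPT library lay among those of CON (0.94 ± 0.33, adjusted p = 0.0229, a call lost in 4 of 18 alternatives with adjusted p 1.2e-09 to 0.107), whereas every AT3 library was above every CON and CPT library (1.65 ± 0.32 against CON, adjusted p = 3.6e-04; 0.71 ± 0.29 against CPT, adjusted p = 0.181). Acot3, a peroxisomal member near the lower end of detection, measured 1.41, 1.30 and 1.24 CPM in CON, 0.424, 1.87 and 0.692 in CPT and 2.85, 1.72 and 2.29 in AT3. CPT overlapped both other groups, and every AT3 library was above every CON library. No difference was called, although AT3 against CON (0.80 ± 0.40, adjusted p = 0.0916) was called higher in 7 of 18 alternatives and AT3 against CPT in 2. CPT against CON was called lower in 1 of the 18, without CPT replicate 2 (adjusted p = 0.0126), and its direction turned in 4. Acot4, also peroxisomal, measured 21.4, 21.1 and 18.5 CPM in CON, 15.4, 17.9 and 17.4 in CPT and 24.0, 19.0 and 21.6 in AT3. CPT was lower than CON (-0.27 ± 0.11, adjusted p = 0.0491), a call lost in 17 of 18 alternatives (adjusted p 0.0359 to 0.566) and turned to 0.11 with library totals and 0.22 with TPM. The coding sequences of Acot1 and Acot2 are 95.5% identical, so their reads may have been divided wrongly. Of the 50-base windows of Acot1 59.0% also occur in another annotated gene, most often Acot2.

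The microsomal step held the largest rise and the largest fall of the 37 in CPT against CON. Cyp4a14, an omega-hydroxylase known as one of the most responsive PPARA targets, measured 0.562, 0.353 and 0.844 CPM in CON, 24.1, 32.8 and 66.6 in CPT and 44.8, 36.5 and 34.4 in AT3. The CON libraries held 10, 9 and 15 counts and the CPT libraries 681, 1055 and 1732, and the log2 fold change was 6.18 ± 0.42 (72.7-fold, adjusted p = 6.6e-09). Cyp4a10 measured 18.8, 18.2 and 21.6 CPM in CON, 61.7, 71.7 and 109.9 in CPT and 63.3, 59.5 and 66.7 in AT3. It was 4.16-fold higher in CPT (2.06 ± 0.17, adjusted p = 6.1e-08). For both genes the third CPT library was the highest of all 9, every CPT and AT3 library exceeded CON, and AT3 overlapped CPT. Cyp4a12a, the male-predominant member of the family, went the other way, with 414, 327 and 442 CPM in CON, 51.8, 65.4 and 54.2 in CPT and 57.6, 52.4 and 62.0 in AT3. It was 6.90-fold lower in CPT (-2.79 ± 0.13, adjusted p = 1.1e-10) and overlapped CPT in AT3 (0.00 ± 0.12). By TPM Cyp4a12a made up most of the 3 genes' sum in CON (107 of 114 TPM), and Cyp4a10 led in CPT (40.1 of 80.8 TPM). The 3 lie within chr4:115299046-115533649 (GRCm38), and their coding sequences are 75.8 to 80.3% identical to each other. Cyp4a12a is 98.5% identical to Cyp4a12b and Cyp4a10 97.2% to Cyp4a32, with which reads may be shared.

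Bdh1, the mitochondrial dehydrogenase that interconverts acetoacetate and beta-hydroxybutyrate, was the 1 ketone gene of the 37 and did not follow the mitochondrial genes. It measured 118, 106 and 107 CPM in CON, 102, 118 and 123 in CPT and 76.2, 74.2 and 79.8 in AT3. CON and CPT overlapped (0.05 ± 0.10, adjusted p = 0.681). AT3 lay below both in every library, by -0.57 ± 0.10 against CPT (adjusted p = 0.00409) and -0.52 ± 0.10 against CON (adjusted p = 2.0e-04). With library totals and with TPM Bdh1 was called higher in CPT than in CON (0.44 with each), and neither call of AT3 remained. Against CPT the log2 fold change of AT3 was then still -0.58 with library totals (adjusted p = 0.0505) and -0.52 with TPM (adjusted p = 0.101), and against CON it was -0.14 and -0.08.

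The last 3 genes are PPARA targets outside the oxidation steps. Pdk4, a kinase that shuts off pyruvate dehydrogenase and so spares glucose, measured 4.66, 6.08 and 5.24 CPM in CON, 1.31, 1.99 and 2.15 in CPT and 4.56, 4.76 and 2.97 in AT3. The CPT libraries were the lowest, 2.94-fold below CON (-1.56 ± 0.23, adjusted p = 2.8e-05). AT3 lay above CPT (1.18 ± 0.23, adjusted p = 0.0101; not called with TPM, nor without AT3 replicate 1 or 2, adjusted p 1.7e-06 to 0.151 over the alternatives) and overlapped CON (-0.38 ± 0.21, adjusted p = 0.126). Fgf21, the hormone the liver secretes in fasting and stress, measured 6.29, 4.0 and 5.85 CPM in CON, 6.04, 5.11 and 8.53 in CPT and 12.2, 10.4 and 11.5 in AT3. CON and CPT overlapped (adjusted p = 0.203). AT3 was above both (0.80 ± 0.18 against CPT, adjusted p = 0.0203, a call lost in 7 of 18 alternatives with adjusted p 1.9e-06 to 0.0998; 1.10 ± 0.19 against CON, adjusted p = 1.1e-04). Vnn1, a pantetheinase that breaks down a product of coenzyme A, measured 1.85, 2.36 and 3.60 CPM in CON, 11.3, 15.0 and 15.3 in CPT and 11.4, 9.37 and 7.74 in AT3. It was 5.35-fold higher in CPT than in CON (2.42 ± 0.21, adjusted p = 1.1e-07), with AT3 and CPT overlapping by 1 library each.

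TPM corrects for gene length and fixes the total of a library, but has no TMM factor. Summed per step in TPM, the mitochondrial genes reached 594 to 874 TPM in CON libraries, 1198 to 1454 in CPT libraries and 1288 to 1404 in AT3 libraries. The peroxisomal genes reached 212 to 339, 263 to 394 and 351 to 389 TPM. The microsomal genes reached 110 to 119, 58.2 to 106 and 72.0 to 78.8 TPM, and Bdh1 36.98 to 44.4, 47.7 to 61.2 and 37.97 to 38.8 TPM. In TPM, CPT and CON were thus separate for the mitochondrial and ketone steps (upward) and the microsomal step (downward), and overlapped for the peroxisomal step. The ketone step is Bdh1 alone, higher by 0.44 with log2(TPM + 1), where the median of all genes was 0.29. With TMM Bdh1 was not called. As a share of the summed TPM of the 37 genes, which does not depend on the library scaling, the mitochondrial step took 35.7% ± 1.25 in CON (mean ± SD, n = 3), 41.0% ± 0.947 in CPT and 38.2% ± 0.372 in AT3. The peroxisomal share went from 13.7% ± 1.05 to 10.3% ± 1.10 and 10.6% ± 0.0917, the microsomal share from 5.77% ± 0.866 to 2.41% ± 0.463 and 2.13% ± 0.0568, and the ketone share from 2.04% ± 0.143 to 1.68% ± 0.0312 and 1.09% ± 0.0368. The mitochondrial share was thus larger and the other 3 were smaller in CPT than in CON, by more than the SD of either group. The smaller peroxisomal and microsomal shares did not reflect all genes of these steps. Among the peroxisomal genes only Acaa1b fell in mean TPM, from 129 in CON to 40.3 in CPT. Ehhadh, Hsd17b4, Acaa1a and Eci2 were each higher in CPT by mean TPM. Among the microsomal genes only Cyp4a12a fell (107 to 23.8 TPM), while Cyp4a10 and Cyp4a14 were higher. Shares without Acaa1b or Cyp4a12a were not computed. Carnitine import rose from 3.66% ± 0.162 to 5.04% ± 0.228 in CPT and electron transfer from 29.8% ± 0.772 to 31.9% ± 1.6, the latter within the sum of both SDs, while activation fell from 6.30% ± 0.366 to 4.53% ± 0.549.

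**Figure D3:**
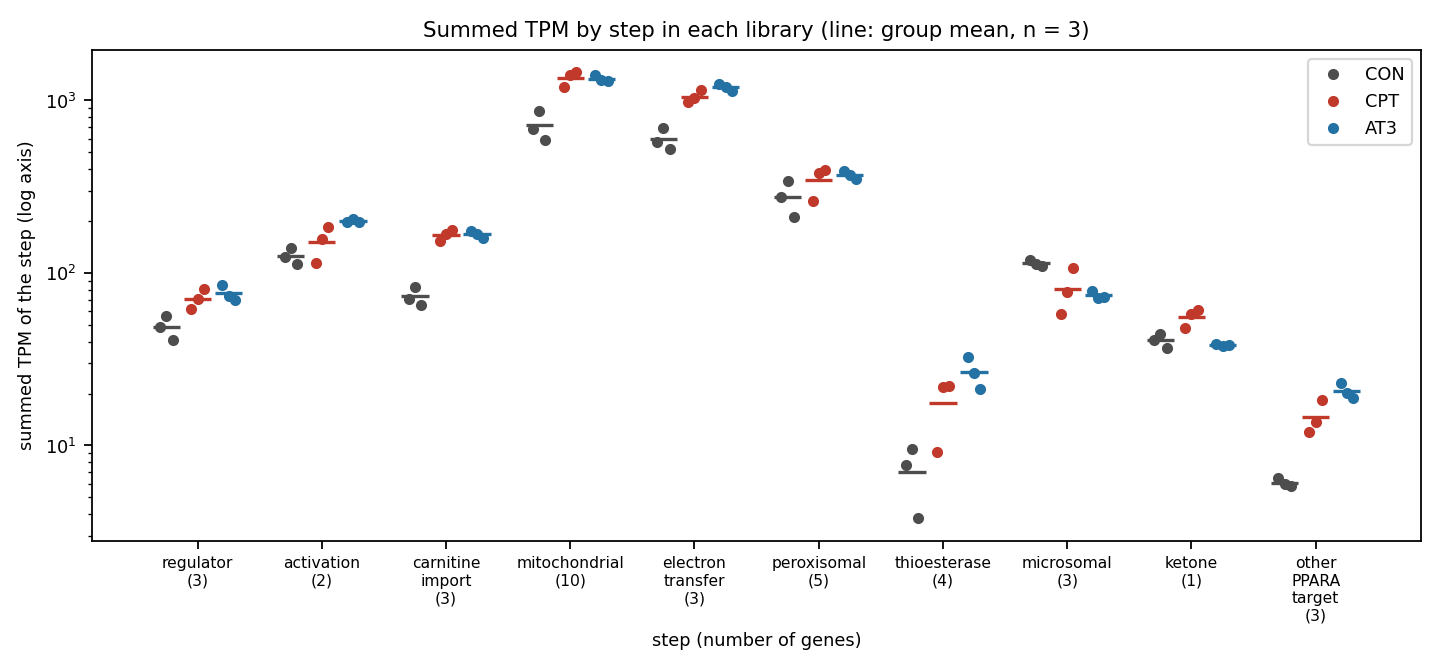
Summed TPM of the genes of each step in every library (log axis), with a line at the mean of the 3 libraries of each group and the number of genes under each step. The mitochondrial and carnitine import sums of CPT and AT3 lie above all CON libraries, the microsomal sums of CPT and AT3 lie below them, and the peroxisomal sums of CPT and CON overlap.

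AT3 against CPT, the comparison that bears on the compound named in the series title if AT3 stands for it, called 4 of the 37 genes higher (Acsl1, Etfdh, Pdk4 and Fgf21) and 2 lower (Acaa1b and Bdh1). That is 16.2% of them, beside 4.68% of all genes tested (2.46% higher and 2.22% lower), and their median log2 fold change was 0.05 beside 0.00 over all genes. None of the 10 mitochondrial, 3 carnitine import, 4 thioesterase or 3 microsomal genes was called, and the log2 fold changes of the mitochondrial genes were -0.03 to 0.24. The count depends on single libraries, since it was 7 higher and 2 lower without CPT replicate 3, 1 higher and 1 lower without AT3 replicate 2, and 1 higher and none lower with TPM. CPT replicate 3 had the highest Cyp4a10, Cyp4a14, Hadha and Hadhb of its group, and on the second principal component of all genes it lay between the other CPT libraries and AT3.

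AT3 against CON called 25 of the 37 genes higher and 7 lower, 86.5% of them beside 64.4% of all genes (31.5% higher and 32.9% lower), with a median of 0.62 beside -0.04. The libraries of AT3 and CON did not overlap for 34 of the 37 genes (27 higher, 7 lower), and for 70.3% of all genes (34.5% higher, 35.9% lower). This comparison shares the CON libraries with the first and the AT3 libraries with the second, so the 3 sets of values are not independent. In AT3 against CON 9 of 10 mitochondrial genes were higher, 3 peroxisomal genes were higher and 2 lower, 2 microsomal genes were higher and 1 lower, and Bdh1 was lower. Of the 2 lower peroxisomal genes Hsd17b4 (-0.21 ± 0.09, adjusted p = 0.0430) was called lower in 3 of 18 alternatives and was called higher with TPM (0.42, adjusted p = 0.0147). Pdk4 and Acot4, lower in CPT, were not called in AT3 against CON, while Slc27a2, Ehhadh and Fgf21 were called higher there and not in CPT; the difference between CPT and AT3 itself was called for Pdk4 and Fgf21 only. Acsl1 was lower than in CON by -1.65 ± 0.10, Cyp4a12a by -2.78 ± 0.13 and Acaa1b by -3.06 ± 0.17 on the log2 scale.

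**Figure D4:**
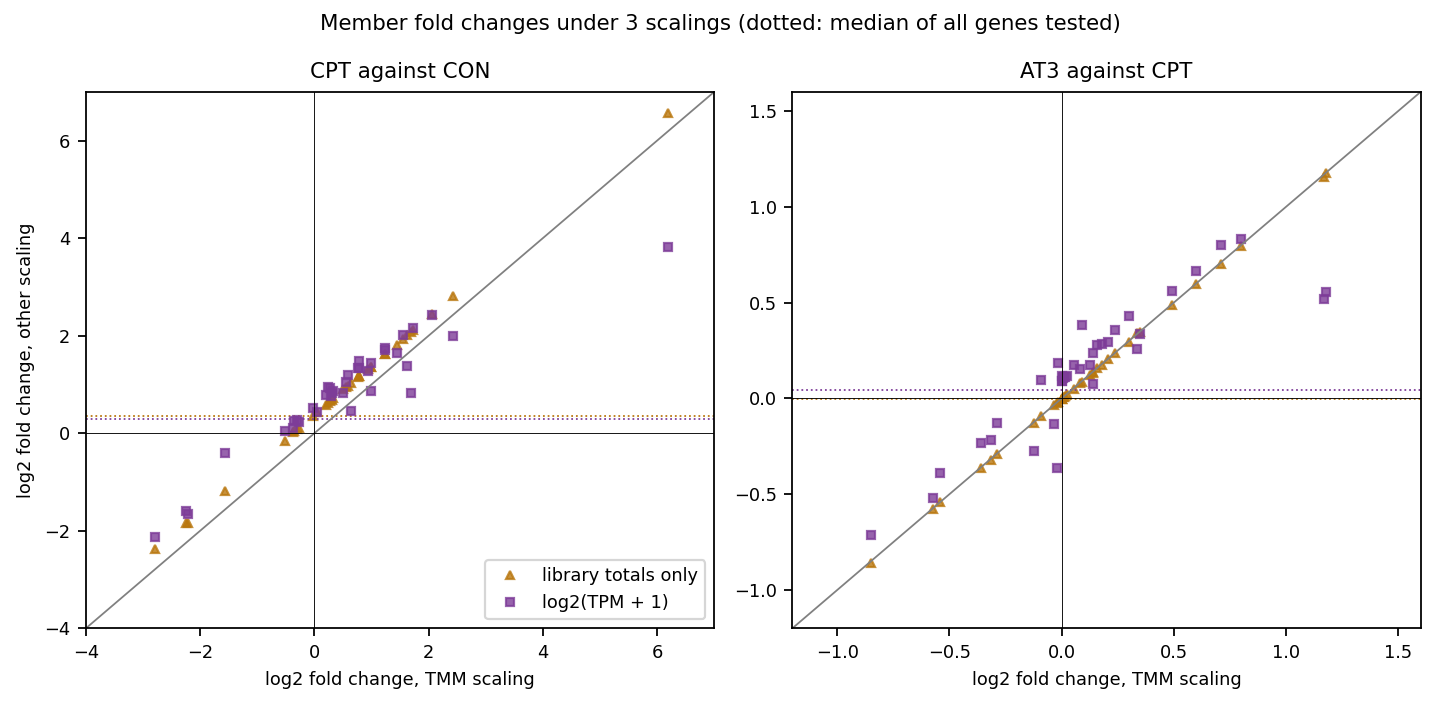
Log2 fold change of the 37 genes by library totals (triangles) and by log2(TPM + 1) (squares) against that by TMM, for CPT against CON (left) and AT3 against CPT (right), with dotted lines at the median of all genes under each scaling. On the left nearly all triangles lie above the diagonal by about the same distance, the shift of the median of all genes from -0.02 to 0.36, and Cyp4a14, at the far right, is smaller on the TPM scale, where 1 was added to each value.

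Other genes of the same routes, 81 in 6 lists of which 76 were tested, gave 30 higher, 23 lower and 23 not called in CPT against CON, with a median log2 fold change of 0.12. Their share of calls was 69.7% (39.5% higher, 30.3% lower), beside 60.8% of all genes (30.0% higher, 30.8% lower). The 17 other mitochondrial genes tested gave 11 higher and 2 lower (median 0.69). Among them were Crat, carnitine acetyltransferase, higher by 1.48 ± 0.12, Slc22a5, the plasma membrane carnitine carrier, higher by 1.46 ± 0.10, and Ech1, a dienoyl-CoA isomerase, higher by 1.05 ± 0.10. Acsm5, a medium-chain acyl-CoA synthetase, was lower by -1.52 ± 0.10. Acad12, an acyl-CoA dehydrogenase family member, was the 1 gene of this list called in AT3 against CPT (-0.62 ± 0.16, adjusted p = 0.0443).

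The 14 other peroxisomal genes gave 4 higher, 3 lower and 7 not called in CPT against CON (median 0.04). These are 28.6% higher and 21.4% lower, beside 30.0% and 30.8% of all genes. Acox2, the branched-chain oxidase, rose from 48.3 ± 7.0 CPM in CON to 139 ± 16.1 in CPT (1.53 ± 0.12, adjusted p = 2.4e-08) and was higher still in AT3 (0.45 ± 0.11 against CPT, adjusted p = 0.0331). Crot, the carnitine octanoyltransferase that prepares shortened chains for export, fell from 167 ± 12.2 to 105 ± 8.28 CPM (-0.66 ± 0.10, adjusted p = 2.1e-05). Catalase, Cat, which breaks down the peroxide that oxidases make, went from 1262 ± 39.9 to 396 ± 28.4 CPM (-1.67 ± 0.11, adjusted p = 3.3e-09). Hacl1, a lyase of branched-chain alpha-oxidation, was not called in CPT and was higher in AT3 than in CPT (76.3 ± 1.54 against 40.8 ± 6.95 CPM, 0.90 ± 0.11, adjusted p = 6.0e-04). Of 8 other microsomal genes 6 were lower and 1 higher in CPT (median -0.64), with Cyp4v3 at -0.87 ± 0.09, Cyp4f15 at -0.64 ± 0.10 and Cyp4a12b, the near copy of Cyp4a12a, at -3.06 ± 0.51. Cyp4a32 was not called in CPT and was higher in AT3 than in CPT (0.84 ± 0.14, adjusted p = 0.00409).

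Of 4 other ketone genes tested, which cover only some stages of the route, 3 were lower in CPT and 1 was not called. Of all genes 30.8% were lower. Bdh2, a cytosolic dehydrogenase, fell from 10.8 ± 1.66 to 1.53 ± 0.277 CPM. Slc16a1, a monocarboxylate carrier, measured 16.2 ± 0.706 CPM in CON, 11.2 ± 0.639 in CPT and 17.5 ± 0.792 in AT3. It was lower in CPT (-0.53 ± 0.10) and higher in AT3 than in CPT (0.64 ± 0.10, adjusted p = 0.00206). Oxct1, the transferase by which tissues other than liver use ketone bodies, was barely detected (0.867 ± 0.544 CPM in CON and 0.285 ± 0.0819 in CPT, -1.57 ± 0.52, adjusted p = 0.0170). Acat1, the mitochondrial acetoacetyl-CoA thiolase, was not called (158 ± 15.1 CPM in CON and 172 ± 8.82 in CPT, 0.12 ± 0.09, adjusted p = 0.276).

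Of 18 other PPARA targets tested 9 were higher and 4 lower in CPT. The share called higher was above that of all genes (30.0%). The share called lower, 22.2%, was below that of all genes (30.8%). The fatty acid-binding protein gene Fabp1 fell from 5779.7 ± 313 to 967 ± 36.5 CPM (-2.58 ± 0.11) while Fabp2 rose from 49.9 ± 3.44 to 180.1 ± 14.1 CPM (1.85 ± 0.10) and the fatty acid receptor gene Cd36 from 2.90 ± 0.485 to 19.4 ± 1.17 CPM (2.72 ± 0.13). G0s2, an inhibitor of adipose triglyceride lipase, measured 26.8 ± 2.75 CPM in CON, 7.27 ± 2.58 in CPT and 16.0 ± 2.67 in AT3. It was lower in CPT (-1.89 ± 0.20) and higher in AT3 than in CPT (1.15 ± 0.20, adjusted p = 0.00565). Among 15 tested partners of PPARA 5 were higher and 5 lower in CPT (33.3% each), near the shares of all genes. Lpin1, a phosphatidate phosphatase that also acts as a coactivator, rose by 2.41 ± 0.19 and rose further in AT3 (0.78 ± 0.17, adjusted p = 0.0170). The receptor Ppard and the acetyltransferase Ep300 were lower, at -2.28 ± 0.17 and -0.88 ± 0.13. The mitochondrial deacetylase Sirt3 was not called in either comparison (0.02 ± 0.09 and 0.14 ± 0.09). In AT3 against CPT 9 of the 76 genes were higher (11.8%) and 3 lower (3.95%), beside 2.46% and 2.22% of all genes.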

How the data were processed

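Per the labels' protocols, RNA of 9 liver samples was purified with a Qiagen kit and sequenced after a SMARTer mRNA preparation. The values used are the estimated counts and the TPM values that the authors deposited for each gene. The aligner, the counting tool and the use of strand were not given in the sources used here, so reads of overlapping or antisense genes may be shared. Builds named without a role in the submitters' processing notes are GRCm38, GRCm39 and mm10. Coordinates here come from GENCODE M21 (GRCm38). Of the 57010 genes, those without counts included, 7.96 to 9.55% had an estimated count that was not whole in a library. All counts were rounded.

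Differences were tested with edgeR 4.0.16 under R 4.3.3, by the quasi-likelihood test with the 9 libraries in 1 model and the group as its term, TMM scaling and edgeR's filter on low counts by group, with Benjamini-Hochberg adjustment over 13686 genes and calls below 0.05. The TMM factors of CON lay between 0.726 and 0.963, those of CPT between 1.07 and 1.13 and those of AT3 between 1.05 and 1.13. Standard errors follow from the quasi-likelihood F statistic. Alternatives were DESeq2 1.42.0, its size factors in edgeR, library totals without TMM, no filter, limma-trend (limma 3.58.1) on log2(TPM + 1) and log2(TPM + 0.1), TMM without mitochondrially encoded and the 10 most abundant genes, only the 6 libraries compared, the replicate number as a block, a minimum log2 fold change of 1 and each library left out. The fit was also run on simulated data in which few genes were changed. That run does not bear on the choice of scaling in CPT against CON, where 60.8% of genes were called. Libraries of the same group differed by more than sampling noise (chi-square per degree of freedom 7.68 to 108).

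The genes were grouped by step, and the pathway and marker lists were set, with earlier results of these data known. Values are printed for every library for regulators, Cpt1a, Bdh1 and, in each other step, the genes with the smallest p in CPT against CON (up to 3) and AT3 against CPT (up to 2); of each pathway list the genes with the smallest p are named by the same rule. A few genes of these lists are not reported here, and the lists' counts leave them out. Sequences were read from RefSeq promoter windows and GENCODE M21 transcripts. For Acaa2, Decr1, Hsd17b4, Cyp4a10, Cyp4a14, Cyp4a12a and Vnn1 no promoter was searched.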

Additional observations from a re-analysis of the deposited data

How the results depend on the processing

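Beside a fold minimum and each library left out, 9 alternatives to the main settings were run. They changed mainly the counts of lower genes among the 37 and the counts in AT3 against CPT. Library totals and TPM also shifted the division of all calls into higher and lower, as the report gives. With a minimum log2 fold change of 1, CPT against CON gave 10 of the 37 genes higher and 4 lower and 3960 calls over all genes instead of 22, 8 and 8326, AT3 against CPT gave 1, 0 and 103 instead of 4, 2 and 641, and AT3 against CON gave 15, 3 and 4428 instead of 25, 7 and 8813. With library totals without TMM, 4 genes were lower in CPT against CON, 3 in AT3 against CON and 1 in AT3 against CPT, where 186 genes in all were called. With log2(TPM + 1) and with log2(TPM + 0.1) the lower counts were 4, 3 and 0 in that order, 1 gene was higher in AT3 against CPT, and 45 and 32 genes in all were called there. Without a filter 4 genes were lower in CPT against CON and 4 in AT3 against CPT, where 1174 genes in all were called.

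Leaving out 1 library gave 20 to 25 genes higher and 5 to 8 lower in CPT against CON (7757 to 8291 calls over all genes), 1 to 7 higher and 1 to 3 lower in AT3 against CPT (172 to 1316 calls, the highest without CPT replicate 3 and the lowest without AT3 replicate 2), and 23 to 27 higher and 6 or 7 lower in AT3 against CON (8253 to 9201 calls). In the other alternatives these counts stayed within 1.5 times the main value.

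Direction turned, beside calls in at least 1 of the compared fits, with library totals, log2(TPM + 1) and log2(TPM + 0.1) in that order, as follows. In CPT against CON the log2 fold changes were 0.11, 0.22 and 0.31 for Acot4, 0.36, 0.52 and 0.53 for Creb3l3, 0.040, 0.25 and 0.25 for Etfa and 0.093, 0.27 and 0.27 for Hsd17b4, and for Ppara 0.039 and 0.11 with the 2 TPM scales. In AT3 against CON they were 0.36, 0.63 and 0.64 for Creb3l3, 0.051, 0.37 and 0.37 for Etfa and 0.17, 0.42 and 0.43 for Hsd17b4. The median of all genes shifted under the same scalings, as the report gives.

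The correlations of deviations of same-numbered libraries were weak, at -0.0378 to 0.0762, and no label says that a number marks a shared batch. Between CPT and AT3 the same-numbered libraries gave 0.0518, 0.0762 and 0.0668. The differently numbered ones there were all negative, at -0.0577 to -0.0185. Deviations from a group mean cancel within the group, so these negative values follow from the positive ones and add nothing to them. With the replicate number as a block 21 genes were higher and 7 lower in CPT against CON (8154 calls), 4 and 2 in AT3 against CPT (451) and 24 and 6 in AT3 against CON (8648).

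Depth limits Acot3, Pdk4, Ppara, Vnn1 and, in CON, Cyp4a14, Ppargc1a, Acot1, Acot2 and Fgf21, whose levels are a few CPM or less. Shared sequence limits Hadhb, Etfb, the Acot, Acaa1 and Cyp4a genes. Of the 50-base coding windows, 10.8% of Eci2, 6.74% of Acadm and 5.67% of Etfa also occur in other annotated genes. With 3 libraries a group, a difference that was not called is not shown to be absent.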
